A study of Homo sapiens with 4 samples.

Results

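The genes described here are 54 neighbouring protein-coding genes of chromosome band 22q12 around XBP1. They were chosen by name, with earlier differences between the lines in these data in view, and each is represented by its brightest probe set, the one with the highest mean over the 4 arrays. Of the 54, 53 have a probe set of their own on the table of 49386 probe sets, and SEC14L2 was not analysed here. A further 2, HORMAD2 and GAL3ST1, lie under the value below which genes were left out as dim, a log2 value of 4.14, so 51 of the 54 stand among the 14970 tested genes of 18239 on the table. Because the run was seen in the difference between MTAC-P and PC9, that difference is given below for the 54 genes as a description, with no test.

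Total RNA was measured on 4 one-colour arrays, 2 of MTAC-P and 2 of PC9. MTAC-P is labelled as a resistant human lung cancer line raised under a mild regimen of a tyrosine kinase inhibitor (TKI). The labels name no inhibitor, dose, clone or parent line for it, and do not say whether drug was present at harvest. PC9 is an established line from a human lung adenocarcinoma that carries mutant EGFR. Both lines were grown in DMEM with serum. The 6 epithelial markers, among them EPCAM, CDH1 and KRT8, had means of 10.35 to 14.41 in MTAC-P and of 10.89 to 14.30 in PC9. The 4 markers of lung lineage, NKX2-1, NAPSA, SFTPB and SFTPC, were close to the dim value, with means of 4.72 to 5.10 in MTAC-P and of 4.71 to 4.95 in PC9, so the epithelial markers stood at clear levels and those of lung lineage did not. Markers of blood, endothelial and fibroblast cells had means of at most 4.84 in MTAC-P and 4.98 in PC9.

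Genes next to each other on a chromosome usually have unrelated functions. They can share a promoter, a chromatin domain or a copy number, so neighbours can differ between cell lines whatever the genes do. The stretch around XBP1 holds genes known from cancer, among them the tumour suppressor NF2 (merlin, upstream of the Hippo pathway), the checkpoint kinase gene CHEK2 and EWSR1, which is fused to other genes in Ewing sarcoma. XBP1 itself encodes the transcription factor that the sensor IRE1 activates by splicing its mRNA during endoplasmic reticulum (ER) stress.

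Promoter sequences are shown for XBP1, for the members of that table with the largest differences and for a pair with neighbouring starts, to set the bases in front of genes that were higher together beside each other. RefSeq's promoter table (GRCh38.p14) holds 39 of the 54 genes. Printed 5′ to 3′ on the minus strand, as each of these genes runs, are the 250 bases before the outermost start of XBP1 (chr22:28800570-28800819), THOC5 (chr22:29553758-29554007), ZMAT5 (chr22:29767008-29767257), PES1 (chr22:30591911-30592160) and NIPSNAP1 (chr22:29581114-29581363). The 211 bases between the starts of CHEK2 and HSCB (chr22:28741821-28742031), which run away from each other, follow. Capitals mark a CCAAT box on either strand (CCAAT or ATTGG) and, in XBP1 alone, the longer ER stress element that holds the second of its CCAAT boxes. The THOC5 and NIPSNAP1 windows hold neither.
XBP1: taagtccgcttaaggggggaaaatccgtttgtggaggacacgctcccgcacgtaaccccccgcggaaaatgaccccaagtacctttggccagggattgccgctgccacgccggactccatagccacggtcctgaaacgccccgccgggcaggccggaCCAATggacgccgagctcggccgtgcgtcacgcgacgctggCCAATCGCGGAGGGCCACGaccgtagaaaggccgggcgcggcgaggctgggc
THOC5: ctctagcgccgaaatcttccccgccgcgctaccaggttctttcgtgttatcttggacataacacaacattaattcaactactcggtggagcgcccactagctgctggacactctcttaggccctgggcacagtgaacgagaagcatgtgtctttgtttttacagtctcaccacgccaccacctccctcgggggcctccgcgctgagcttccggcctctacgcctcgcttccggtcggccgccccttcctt
ZMAT5: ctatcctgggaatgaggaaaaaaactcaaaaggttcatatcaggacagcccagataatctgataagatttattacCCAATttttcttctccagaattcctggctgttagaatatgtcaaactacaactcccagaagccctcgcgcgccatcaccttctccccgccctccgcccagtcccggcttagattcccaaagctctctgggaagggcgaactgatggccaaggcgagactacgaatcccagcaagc
PES1: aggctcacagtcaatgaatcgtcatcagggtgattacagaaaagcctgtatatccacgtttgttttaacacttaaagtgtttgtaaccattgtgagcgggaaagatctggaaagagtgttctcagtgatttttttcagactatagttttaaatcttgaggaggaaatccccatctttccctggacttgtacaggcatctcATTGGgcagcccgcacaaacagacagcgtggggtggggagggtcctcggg
NIPSNAP1: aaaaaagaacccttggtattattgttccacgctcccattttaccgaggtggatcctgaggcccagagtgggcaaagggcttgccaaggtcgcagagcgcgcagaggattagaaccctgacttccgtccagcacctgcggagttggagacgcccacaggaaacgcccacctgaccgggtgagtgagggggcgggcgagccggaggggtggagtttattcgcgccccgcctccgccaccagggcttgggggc
CHEK2 and HSCB: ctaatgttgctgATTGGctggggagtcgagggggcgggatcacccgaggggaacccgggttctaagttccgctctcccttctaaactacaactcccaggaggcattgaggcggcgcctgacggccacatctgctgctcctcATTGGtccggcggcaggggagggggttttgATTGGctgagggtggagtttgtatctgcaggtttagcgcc

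The ER stress element, spelled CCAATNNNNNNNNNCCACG and searched on both strands, begins 52 bases before the XBP1 start. It was found in 1 of the 39 members' windows, that of XBP1, and in 26 of 35116 windows of the same length (0.0740%). The members have 1 window each, at the outermost start, while the 35116 cover every start listed and can hold several per gene. The shares below are therefore not strictly alike. CCAAT was found in 14 of the 39 members' windows (35.9%), against 32.0% of all windows, and GGGCGG, the GC box, in 24 of 39 (61.5%), against 42.6%. CACGTG and TGACGTG were in 0 of the 39 windows, against 6.34% and 1.68% of all windows. TGACTCA and TATAAA were in 2 of 39 each, against 4.20% and 10.7%. The ER stress element contains CCAAT, so XBP1 counts under both. Windows of members with neighbouring starts overlap, so a site between CHEK2 and HSCB, or between ZMAT5 and UQCR10, can count for both genes. No motif searched was in the window of every member shown, which says nothing about the factors that bind there.

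XBP1 had the largest difference of the members. Its values were 10.19 and 10.67 on the MTAC-P arrays, against 8.84 and 8.82 on the PC9 arrays. The PC9 arrays were nearly equal and lay well below both MTAC-P arrays, which differed from each other by 0.49. The mean of XBP1 was 10.43 ± 0.34 in MTAC-P and 8.83 ± 0.018 in PC9 (log2, SD, n = 2 each), a 3.03-fold difference. In bulk RNA such as this, a change in how many cells express a gene and a change per cell cannot be told apart. It rests on a single probe set and stayed between 1.36 and 1.84 on the log2 scale when 1 array was left out.

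**Figure D1:**
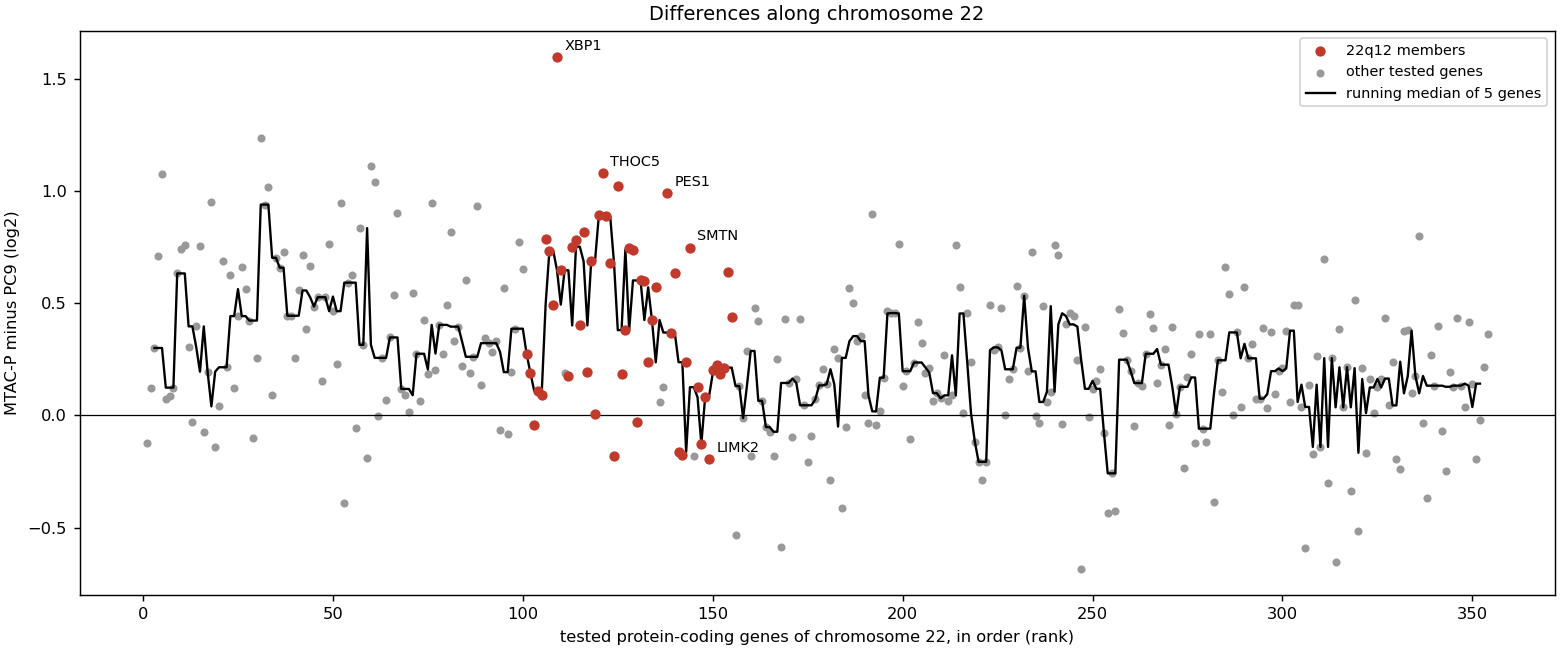
MTAC-P minus PC9 on the log2 scale (vertical axis) for the tested protein-coding genes of chromosome 22 in the order of the reference gene table (horizontal axis, rank). Red points are the 22q12 members, grey points the other tested genes, and the line is the running median of 5 neighbouring genes, which is highest among the members at NEFH (0.89) and lowest at MORC2 (-0.16). To the left of the members the line stays above 0, with its lowest value there, 0.040, at ESS2. Its highest value on the chromosome, 0.94, also lies there, from GNB1L to TXNRD2, above that of the members. Of the 100 genes in that stretch, 11 lie below 0.

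Of the 51 tested members, 44 had the higher mean in MTAC-P, against 53.8% of all tested genes, and 7 the lower. In 33 of the 51, both MTAC-P arrays lay above both PC9 arrays, against 28.3% of all tested genes. The reverse held for 1 member, CABP7, against 24.9% of all tested genes. A difference of at least 1.5-fold in favour of MTAC-P was seen in 21 of the 51, against 3.77%. The median difference was 0.40 over the 51 members and 0.031 over all tested genes. With the 2 dim members included, 45 of 53 were higher and the median was 0.38. EMID1 and RASL10A, among the 44, had PC9 means under the dim value, so the filter kept them only through MTAC-P. EMID1 also counts in the 33 and the 21. MN1, among the 7, was likewise kept only through PC9. Since the members were chosen on this contrast, the shares given here describe the stretch and are no evidence for it.

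The same contrast was also read on single arrays. The median over the 51 members was 0.34 for MTAC-P replicate 1 minus PC9 replicate 1, 0.33 for MTAC-P replicate 1 minus PC9 replicate 2, 0.42 for MTAC-P replicate 2 minus PC9 replicate 1 and 0.47 for MTAC-P replicate 2 minus PC9 replicate 2. Between duplicates it was -0.076 for MTAC-P and 0.0036 for PC9 (replicate 1 minus replicate 2). The medians of all 4 pairs of arrays from different lines lay further from 0 than those of the duplicates. As the members were chosen on this contrast, that is a description and no support for it. In a median of signed differences members cancel, so it does not measure how far single members differed between duplicates. Such differences were largest for PATZ1, at -0.88 in MTAC-P and -0.84 in PC9.

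**Figure D2:**
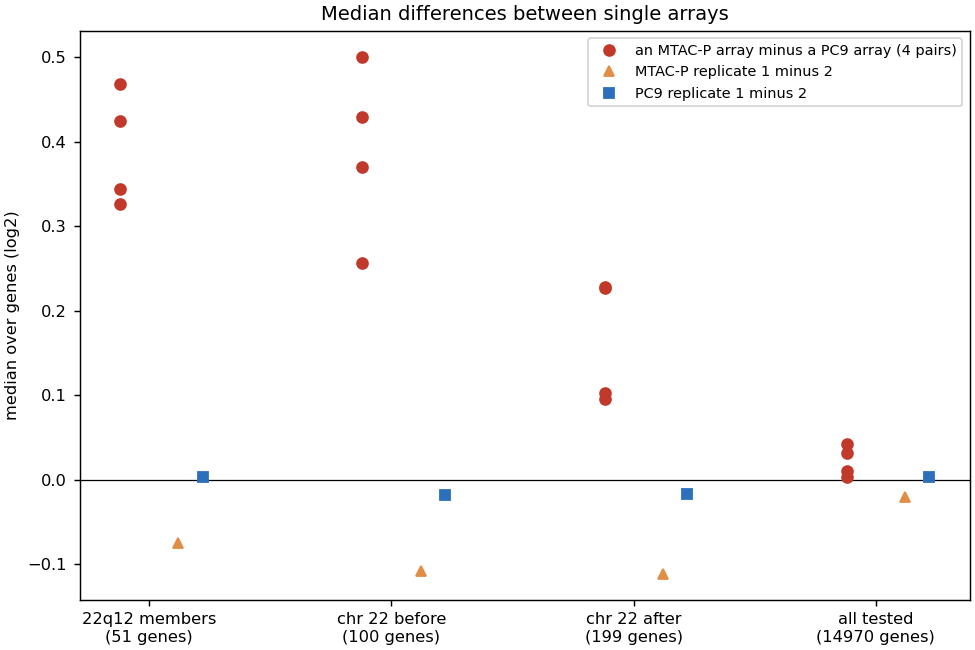
Median log2 difference over genes (vertical axis) for the 51 tested members, the 100 tested genes of chromosome 22 before them, the 199 after them and all 14970 tested genes. Circles are the 4 pairs of an MTAC-P array minus a PC9 array, the triangle is MTAC-P replicate 1 minus 2 and the square PC9 replicate 1 minus 2. For the members the circles run from 0.33 to 0.47, apart from the duplicates.

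The members differed among themselves with their level. A mean of 7 over the 4 arrays, chosen after the values were seen, parts 27 bright members from 24 dimmer tested ones. Of the 27, 27 were higher in MTAC-P, against 53.1% of all genes as bright, and 26 had both MTAC-P arrays above both PC9 arrays, against 32.9%. PATZ1 was the exception, with 7.05 and 7.93 in MTAC-P and 6.84 and 7.68 in PC9. The bright members had a median difference of 0.68, a 1.60-fold difference, and 17 of them reached 1.5-fold, against 4.65% of genes as bright. Of the 24 dimmer members, 17 were higher, against 54.5% of genes as dim, and 7 did not overlap with MTAC-P above, against 24.0%. Their median was 0.18.

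**Figure D3:**
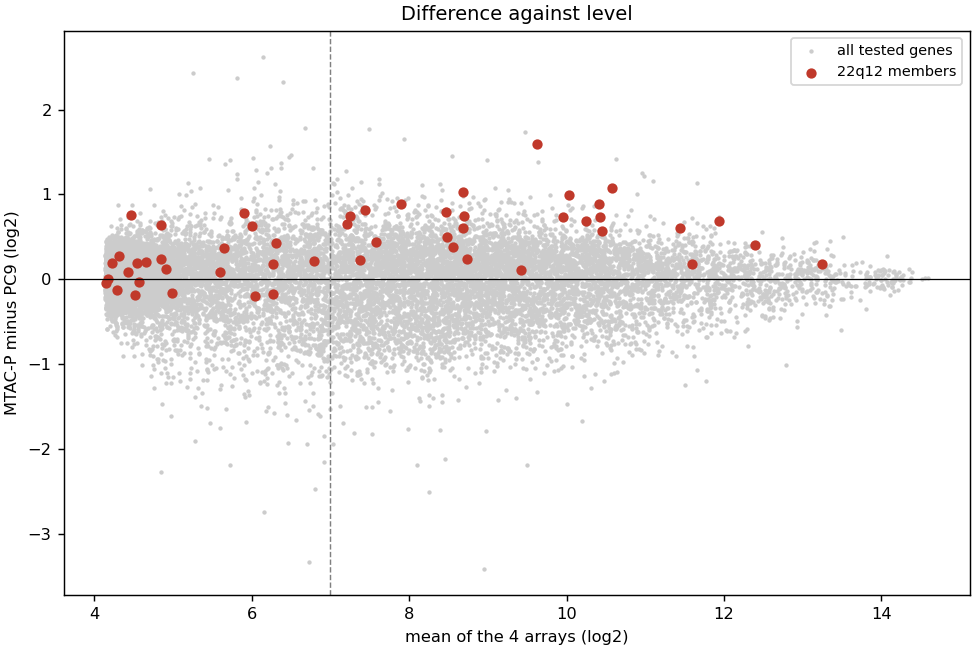
MTAC-P minus PC9 (vertical axis, log2) against the mean of the 4 arrays (horizontal axis, log2) for all 14970 tested genes in grey and the 51 tested members in red. The dashed line marks a mean of 7, to the right of which all 27 members lie above 0.

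Along the chromosome the stretch had 3 blocks, set after the values were seen. The first, from CRYBA4 to TTC28, holds the lens crystallin genes CRYBA4 and CRYBB1, MN1, PITPNB, which encodes a phosphatidylinositol transfer protein, and TTC28. Apart from PITPNB these genes were near the dim value, with means of at most 4.64 in MTAC-P and 4.45 in PC9. The median of the 5 was 0.11, and 4 were higher in MTAC-P, against 53.8% of all tested genes. In 3 of the 5, CRYBA4, PITPNB and TTC28, the arrays did not overlap with MTAC-P above, against 28.3%. PITPNB had 9.52 and 9.43 in MTAC-P and 9.42 and 9.32 in PC9 on its brightest probe set, a difference of 0.11. Its other probe sets reached 0.83, so the size of its difference depends on the probe set read. With all 4 arrays, the run described below passed through this block and had no edge in it.

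The second block, from CHEK2 to PES1, had the highest median of the 3, 0.66. Of its 30 tested members 28 were higher in MTAC-P, against 53.8% of all tested genes, and in 25 the arrays did not overlap with MTAC-P above, against 28.3%. All 21 of its bright members had non-overlapping arrays, against 32.9% of all genes as bright, with differences from 0.18 (UQCR10) to 1.60 (XBP1). CABP7, at -0.18, and OSM, at -0.03, were the 2 lower ones, and both were low in level. The 28 and the 25 include EMID1, and the 28 also RASL10A, both kept by the dim filter only through their MTAC-P values. The third block, from TCN2 to PISD, had a median of 0.21 over 16 tested members. Of these, 12 were higher, against 53.8% of all tested genes. In 5 of the 16 the arrays did not overlap with MTAC-P above, a share close to the 28.3% of all tested genes. Its 5 bright members, MORC2, SMTN, PATZ1, DRG1 and PISD, had a median of 0.24, against 0.73 for the 21 bright members of the second block.

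**Figure D4:**
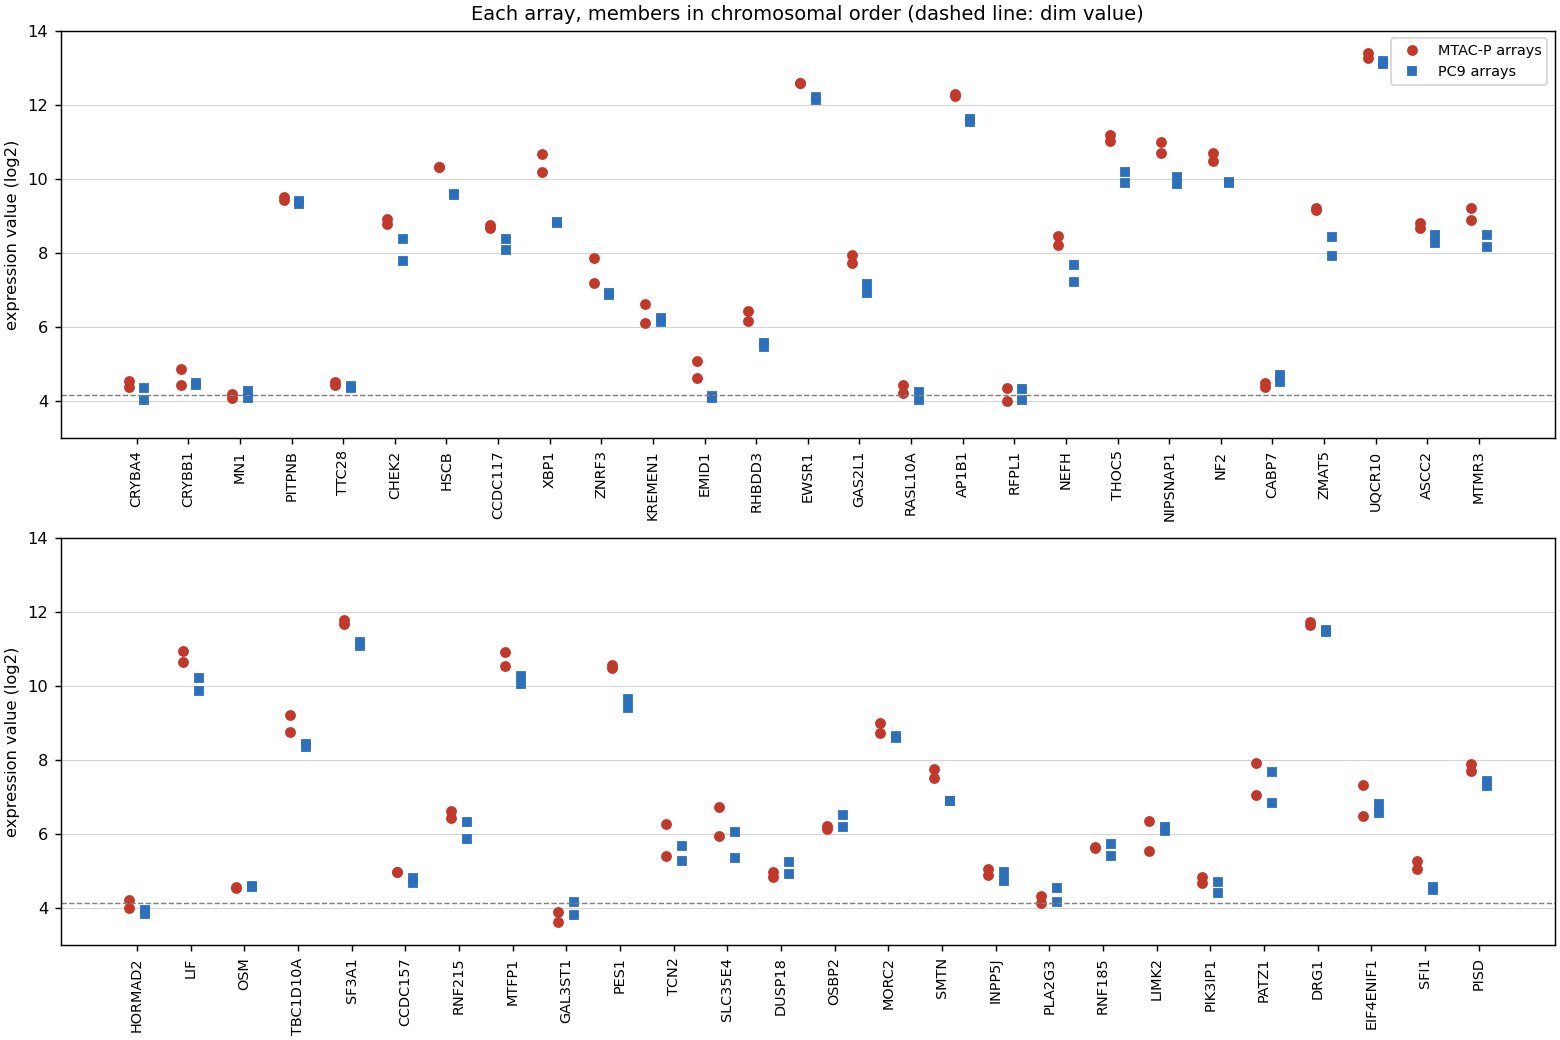
Expression value on each array (vertical axis, log2) for the 53 members on the table in chromosomal order. Red circles are MTAC-P arrays, blue squares PC9 arrays, and the dashed line is the dim value of 4.14. From CHEK2 to PES1 the circles of every bright member stand above the squares, as for HSCB with 10.32 and 10.31 in MTAC-P and 9.60 and 9.57 in PC9.

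Among members that act on RNA and ribosomes, THOC5, a subunit of the THO complex that couples transcription to mRNA export, had 11.20 and 11.04 in MTAC-P, against 10.18 and 9.90 in PC9. The means of THOC5 were 11.12 ± 0.11 and 10.04 ± 0.20 (SD, n = 2 each), a 2.12-fold difference. ZMAT5, which encodes a protein of the minor spliceosome, had 9.21 and 9.17 in MTAC-P and 8.42 and 7.91 in PC9. These genes were the members besides XBP1 with a fold above 2. PES1, which acts with BOP1 and WDR12 in making the large ribosomal subunit, came close at 1.99-fold, with 10.56 and 10.49 in MTAC-P and 9.65 and 9.42 in PC9. SF3A1, a subunit of the U2 snRNP, had 11.78 and 11.69 against 11.19 and 11.09 in PC9, and its 3 probe sets differed by 0.20 to 0.71. EWSR1, which encodes an RNA-binding protein, was among the brightest members, with 12.59 on both MTAC-P arrays and 12.23 and 12.15 in PC9. Its 4 probe sets lay between 0.29 and 0.40, a narrow range. EIF4ENIF1, which carries the cap-binding protein eIF4E into the nucleus, lay in the third block and overlapped, at 6.49 and 7.31 in MTAC-P and 6.57 and 6.81 in PC9.

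Mitochondrial genes were spread over the stretch. HSCB, a cochaperone of iron-sulfur cluster assembly, had a difference of 0.73 that moved only between 0.72 and 0.75 when 1 array was left out. NIPSNAP1 had 10.70 and 11.00 in MTAC-P against 10.06 and 9.86 in PC9, a 1.85-fold difference, and its second probe set gave 1.24 on the log2 scale. MTFP1, which acts in mitochondrial fission, had 10.55 and 10.91 in MTAC-P against 10.06 and 10.26 in PC9. UQCR10, a small subunit of respiratory complex III, was the brightest member, at 13.40 and 13.27 in MTAC-P and 13.19 and 13.11 in PC9, and had the smallest difference among the bright members of its block. PISD, which makes phosphatidylethanolamine in the inner membrane, had 7.69 and 7.90 in MTAC-P and 7.43 and 7.29 in PC9, so that the last member of the list was still higher without overlap.

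Of the members in growth control and DNA repair, NF2 had 10.70 and 10.48 in MTAC-P, against 9.89 and 9.93 in PC9, a 1.60-fold difference. Its arrays were clearly apart, and 6 of its 7 probe sets were higher in MTAC-P, with a range from -0.30 to 0.97. CHEK2, which halts the cell cycle after DNA breaks, had 8.79 and 8.93 in MTAC-P and 8.37 and 7.78 in PC9, and its 3 probe sets differed by 0.65 to 0.79. ASCC2, of a complex that acts in alkylation repair and on stalled ribosomes, differed by 0.38 and MORC2, a chromatin silencing factor, by 0.24. SFI1, a centrosome gene near the distal end, had 5.06 and 5.27 in MTAC-P and 4.49 and 4.56 in PC9, but its 3 probe sets ran from 0.021 to 0.64.

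The cytokine genes LIF and OSM lie side by side. LIF had 10.94 and 10.64 in MTAC-P, against 10.23 and 9.88 in PC9, a 1.67-fold difference with no overlap. OSM was low in both lines, at 4.57 and 4.53 in MTAC-P and 4.56 and 4.60 in PC9, so only LIF of this pair was expressed at a clear level. ZNRF3, a ubiquitin ligase that removes Wnt receptors from the cell surface, had 7.20 and 7.87 in MTAC-P and 6.86 and 6.92 in PC9. KREMEN1, the receptor that binds the Wnt inhibitor DKK1, had 6.11 and 6.60 in MTAC-P and 6.23 and 6.14 in PC9, with overlap. MTMR3, a phosphatase of phosphoinositides, differed by 0.74, and the dual-specificity phosphatase gene DUSP18 by -0.16 with overlap.

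Trafficking and cytoskeletal genes varied. AP1B1, the beta subunit of the AP-1 clathrin adaptor, had 12.30 and 12.25 in MTAC-P and 11.64 and 11.54 in PC9, a 1.61-fold difference. TBC1D10A, a Rab GTPase-activating protein, had 8.75 and 9.23 against 8.35 and 8.43 in PC9. The neurofilament gene NEFH had 8.46 and 8.22 in MTAC-P and 7.68 and 7.21 in PC9, and both of its probe sets were higher, by 0.80 and 0.89. GAS2L1, which links actin and microtubules, had a difference of 0.82, although its other probe sets gave 0.072 and -0.13. SMTN, which encodes smoothelin of contractile smooth muscle, had 7.51 and 7.74 in MTAC-P against 6.88 on both PC9 arrays, and 6 of its 7 probe sets were higher. LIMK2, a kinase of the actin regulator cofilin, had 5.54 and 6.35 in MTAC-P and 6.08 and 6.20 in PC9. Its difference of -0.20 was the lowest of the tested members, while 5 of its 7 probe sets above the dim value were higher.

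Several further members had low values that did not overlap. RHBDD3, a rhomboid family gene, had 6.15 and 6.43 in MTAC-P against 5.56 and 5.45 in PC9. EMID1, which encodes an extracellular matrix protein, had 5.07 and 4.62 in MTAC-P against 4.06 and 4.12 in PC9. Both PC9 values of EMID1 lay under the dim value, so the filter kept this gene only through MTAC-P. RNF215 and CCDC157 were also higher without overlap, by 0.43 and 0.24. CCDC117, in the bright set, had 8.68 and 8.77 in MTAC-P and 8.39 and 8.07 in PC9, and DRG1, a GTPase gene of the third block, differed by 0.19.

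The members whose arrays overlapped were, besides CRYBB1, MN1 and those given above with overlapping values, RASL10A, RFPL1, TCN2, SLC35E4, OSBP2, INPP5J, PLA2G3, RNF185 and PIK3IP1. TCN2, the transcobalamin that carries vitamin B12 in plasma, had 6.27 and 5.40 in MTAC-P and 5.26 and 5.67 in PC9. SLC35E4 had 5.93 and 6.72 in MTAC-P and 5.34 and 6.04 in PC9. These 9 had differences from -0.17 (OSBP2) to 0.63 (SLC35E4), and all had means of at most 6.32 in MTAC-P and 6.35 in PC9.

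Read over all their probe sets above the dim value, the 51 members had 98 of 116 higher in MTAC-P, against 53.7% of all such probe sets with 1 gene symbol. Of the 29 members with several, 19 had every one higher, and among the bright members 62 of 66 probe sets were higher. The 4 bright exceptions belonged to GAS2L1, NF2, MTMR3 and SMTN. Probe sets of 1 gene share its transcripts and are not independent.

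**Figure D5:**
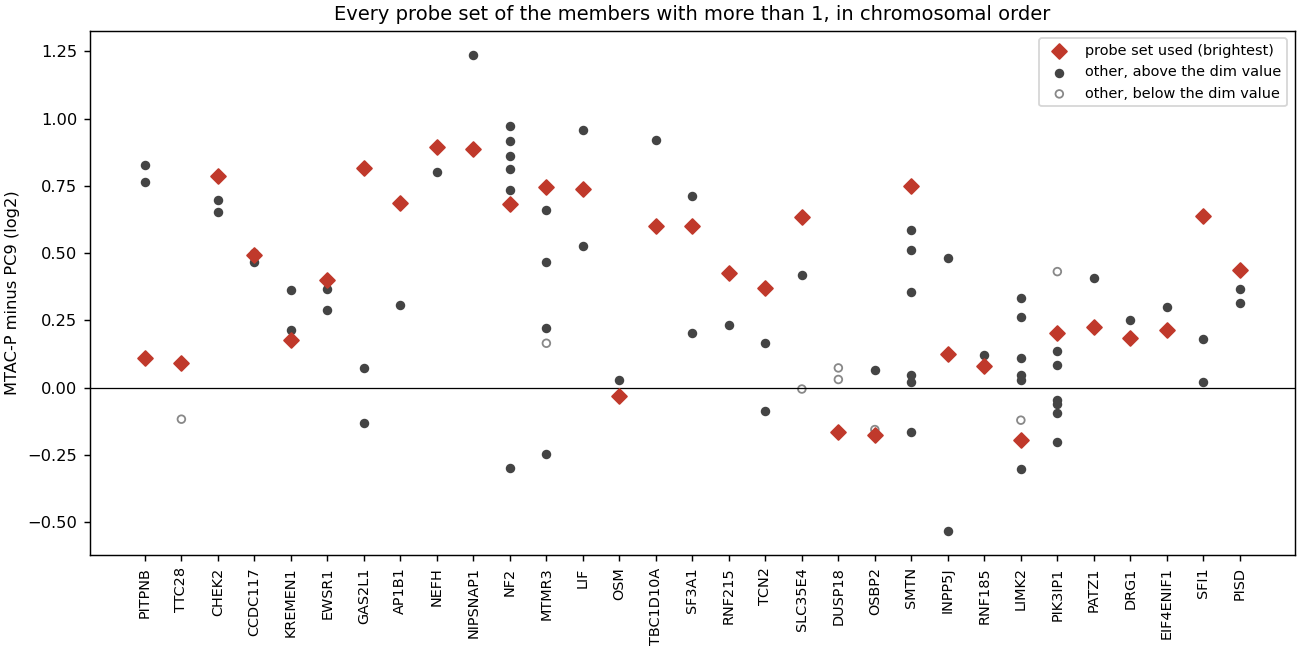
MTAC-P minus PC9 (vertical axis, log2) for every probe set of the members that have more than 1, in chromosomal order. Diamonds are the probe sets used, filled circles other probe sets above the dim value and open circles those below it. The NF2 probe sets run from -0.30 to 0.97, and those of EWSR1 from 0.29 to 0.40.

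Pairs of members with starts on opposite strands under 1000 bases apart were compared, because such pairs can share a promoter. In RefSeq's table there were 4. CHEK2 and HSCB, whose starts are 212 bases apart, differed by 0.79 and 0.73. RHBDD3 and EWSR1, 105 bases apart, differed by 0.78 and 0.40, and ZMAT5 and UQCR10, 362 bases apart, by 1.02 and 0.18. The starts of SF3A1 and CCDC157 overlap by 270 bases, and they differed by 0.60 and 0.24. Both genes were higher with no overlap of arrays in each of the 4 pairs, against 28.3% of all tested genes. All of them lie in the block from CHEK2 to PES1, where this held for 25 of 30 tested members. The amounts were similar only for CHEK2 and HSCB. Whether a shared promoter plays a part was not tested.

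The span of the raised run was read on the tested protein-coding genes of chromosome 22 in the order of the reference gene table. Going out from XBP1 until 2 genes in a row were not higher, the run reached SLC35E4 on the far side, before DUSP18 and OSBP2, which differed by -0.16 and -0.17. On the near side it did not stop at the members and reached XKR3, among the first tested genes of the chromosome, so that it held 139 genes, 37 of them members and 102 not, with 13 genes inside that were not higher. Without MTAC-P replicate 2 the same rule gave 32 genes from PITPNB to MTFP1, and with dim genes kept it gave 83 from IGLL5 to SLC35E4. XBP1 itself was inside by construction. The far edge rests on SLC35E4, DUSP18 and OSBP2, whose arrays all overlapped. Other probe sets of DUSP18, both under the dim value, gave 0.031 and 0.074, and those of OSBP2 gave -0.16 and 0.064. Beyond this edge the 5 bright members of the third block were all higher, by 0.19 (DRG1) to 0.75 (SMTN), PATZ1 with overlap. Higher members therefore did not end there.

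The genes on the near side were not among the 54. Of the 100 tested there, 89 were higher in MTAC-P, against 53.8% of all tested genes, and 66 were higher without overlap, against 28.3%. The median was 0.39. The bright ones were higher in 39 of 39 cases, with a median of 0.63, beside 0.68 for the bright members. Among the 15 tested genes next to the members on this side, GUCD1, SRRD and TPST2 had the largest differences. SRRD had means of 9.84 in MTAC-P and 9.07 in PC9 and GUCD1 of 9.42 and 8.48, and SEZ6L was lowest at -0.081. limma's test at an adjusted p of 0.05, which called 0.0200% of all tested genes, called 0 of these 15. An unadjusted p under 0.05 was found for 3 of the 15 and for 2823 of the 14970 tested genes.

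On the far side the values were lower. Of the 199 tested genes after PISD, 147 were higher, against 53.8% of all tested genes, and 96 were higher without overlap, against 28.3%. Their median was 0.16. A difference of at least 1.5-fold was reached by 9 of the 199 (4.52%), a share close to the 3.77% of all tested genes. On the near side it was reached by 32 of the 100. The 15 next to PISD had a median of 0.065. Of them, 8 were higher, a share close to the 53.8% of all tested genes, led by RFPL2 at 0.48 and MCM5 at 0.43. Of these 15, 3 were higher without overlap, a share below the 28.3% of all tested genes. HMOX1 and PRR14L were lower, at -0.58 and -0.53, without overlap (limma adjusted p = 0.181 and 0.164), and 0 of the 15 passed, with 4 at an unadjusted p under 0.05. Between the members lie 4 tested genes that are not on the list, C22orf31, SEC14L3, SEC14L4 and SELENOM, with differences from -0.18 to 0.19. For comparison, the medians of the other 22 chromosomes ran from -0.11 on chromosome 4 to 0.13 on chromosome 19. No test of the difference between these stretches was made.

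The members' median length was 33.2 kb and their median number of protein-coding genes within 500 kb on each side was 16, against 26.6 kb and 12 for all tested genes. With the trend of the difference with gene length, gene density and level removed, the median of the members was 0.38, and XBP1 differed by 1.57.

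Genes that work with the members but lie elsewhere were followed in lists. XBP1 was the starting point for 35 genes of its targets and of the ER stress sensors, all tested. The mean was higher in MTAC-P for 20 of these, against 53.8% of all tested genes, and lower for 15. Without overlap, 8 were higher, against 28.3% of all tested genes, and 9 lower, against 24.9%. The median difference of the 35 was 0.015. limma's test called 0 of the 35, with 5 at an unadjusted p under 0.05. SDF2L1, an ER chaperone cofactor, differed by 0.83 (SE 0.22, limma adjusted p = 0.137) and ATF4 by 0.46, and both lie on chromosome 22, as do DERL3 and CRELD2 of this list. DNAJC3 differed by -0.84 (SE 0.16, limma adjusted p = 0.111) and the translocon gene SSR1 by -0.76. HSPA5, the main ER chaperone, had means of 12.04 in MTAC-P and 11.76 in PC9. The median of the list thus stood near that of all genes, with genes differing both ways, while XBP1 mRNA was 3.03-fold higher. The table does not separate spliced from unspliced XBP1.

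Partners of ZNRF3 and KREMEN1 in Wnt receptor turnover had a median difference of -0.12. Of 15 tested, 10 were lower, 4 of them without overlap, against 24.9% of all tested genes. A further 5 of the 15 were higher, against 53.8% of all tested genes, and 2 of the 15 were higher without overlap, against 28.3%. In limma's test 0 of the 15 passed (2 at an unadjusted p under 0.05). DKK1 differed by -0.61 with overlap and LRP6, a Wnt coreceptor, by -0.53, while DKK3 and LRP5 differed by 0.32 and 0.23. Receptors and response genes of LIF and OSM had 14 of 21 tested genes higher, against 53.8% of all tested genes. Their median was 0.073, with 0 past limma's test (3 at an unadjusted p under 0.05). The feedback inhibitor SOCS3 had means of 6.47 in MTAC-P and 5.65 in PC9, without overlap. The arrays of IL11 overlapped, with 8.20 and 9.56 in MTAC-P and 7.35 and 8.75 in PC9. SERPINA3, an acute phase gene, had 4.83 and 4.74 in MTAC-P and 6.14 and 8.91 in PC9, a difference of -2.74 (SE 0.79, limma adjusted p = 0.159). Leaving out PC9 replicate 1 gave -4.13 and leaving out PC9 replicate 2 gave -1.36, so its size depends on which PC9 array is used. The shared receptor chain IL6ST differed by -0.92. LIFR was low in both lines, at 4.48 in MTAC-P and 4.58 in PC9.

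Complex partners, none of them on chromosome 22, and paralogues were read beside the members. Of 36 tested partners in the complexes of SF3A1, THOC5, UQCR10, AP1B1, PES1, ASCC2 and HSCB, 23 were higher, against 53.8% of all tested genes. Their median was 0.19. Without overlap, 18 were higher, against 28.3% of all tested genes, and 7 lower, against 24.9%. None of the 36 passed limma's test (0 of 36, with 8 at an unadjusted p under 0.05). AP1S1 and SF3B4 differed by 0.82 and 0.75, and THOC2 and ASCC3 by -0.80 and -0.63, so THOC2 was lower where its partner THOC5 was higher. Of 29 tested genes listed as paralogues of members, 13 had the higher mean in MTAC-P, against 53.8% of all tested genes, and 16 the lower. The median difference of the 29 was -0.039, and limma's test called 0 of them (4 at an unadjusted p under 0.05). CCDC116 of this list lies on chromosome 22 before the members. It shares the CCDC name with CCDC117 and CCDC157, which does not make it a paralogue. DRG2 and SMTNL2 differed by 0.60 and 0.37, and TCN1 and NIPSNAP3A by -0.91 and -0.66. NIPSNAP2 had means of 12.51 in MTAC-P and 12.63 in PC9, beside 10.85 and 9.96 for NIPSNAP1. Whether these lists differ from the members was not tested.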

How the data were processed

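The authors deposited log2 expression values, 1 per probe set and array. That they are log2 values was judged from their range, 3.32 to 14.6, and from array medians of 4.85 to 4.88. Agilent Feature Extraction 10.7 is named in the submitters' processing notes, while the probe-set names are of Affymetrix type. Background correction, normalization and summarization are not given in the sources used here, and the values were used without further scaling. Probe sets with 1 symbol in GEO's platform annotation (45259) were named, with symbols updated by gene identifier to GRCh38.p14. The brightest probe set stood for a gene, and genes with a mean under the 25th percentile were left out. That filter keeps a gene through its brighter line, and near it a fold change understates the difference.

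MTAC-P was tested against PC9 by limma (version 3.58.1, R 4.3.3, lmFit and eBayes, 2-sided) with Benjamini-Hochberg adjustment over 14970 genes at 0.05. The step was tested on simulated data. It called 3 genes, and 2823 had an unadjusted p under 0.05. Precision is limited by having 2 arrays of each line, for which the smallest p of an exact permutation test is 0.333. The labels do not say whether duplicates came from separate cultures, so p-values measure only the spread between these arrays, which may be technical. Gene order came from RefSeq's table of GRCh38.p14, and plots were made in matplotlib 3.10.9 under Python 3.11.15.

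The members, lists, blocks and bright level were chosen with earlier results of these data known. Every member is named or counted. From each list the text names the genes past the test or, with none, the genes with the largest differences in each direction. HSPA5, LIFR and NIPSNAP2 were named in addition, after seeing their values, as were MCM5, SRRD and TPST2. Alternatives tried were centring on the median or 75th percentile, quantile normalization, a dim filter set at the 50th percentile or omitted, the mean of a gene's probe sets, addition of 16 as a pseudocount to linear values, omission of each array, the replicate number as a block, other variance priors and an unmoderated test. Removal of a trend by loess (span 0.5) was chosen after seeing the data.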

Additional observations from a re-analysis of the deposited data

How the results depend on the processing

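The members' median difference of 0.40 kept its sign under every setting run. It was 0.59 over the 38 members left by the dim filter at the 50th percentile, 0.32 with the mean of all probe sets or of those above the dim value, and 0.35 to 0.53 when 1 array was left out. The count of members higher without overlap, 33 of 51, became 28 of the 38 left by the 50th percentile filter. With no dim filter it was 34 of 53, and under the other settings 32 to 41 of 51. The share of all tested genes under each setting is not given here, and the 28.3% above is no measure for these counts. With 1 array left out, fewer arrays are compared and non-overlap is easier to reach. The run around XBP1 held 83 genes with no dim filter and 32 to 139 when 1 array was left out, 32 being the value without MTAC-P replicate 2. The 3 genes past limma's threshold became 0 with either mean of probe sets and in the unmoderated test, 1 with the pseudocount or with the filter at the 50th percentile, and 77 with a trend in the prior variance. They became 0 to 68 when 1 array was left out, 0 without either MTAC-P array and 68 without PC9 replicate 1. The cause was not tested. With the replicate number as a block, 2079 genes passed, and the members' median stayed at 0.40. The labels do not say that equal numbers share a culture or day, and deviations of same-numbered arrays from their line's mean correlated at 0.28 across genes. Under any setting at most 4 of 51 members turned sign, and of the bright ones only PATZ1. The largest difference among those that turned was that of TCN2, 0.37, which became -0.066 without MTAC-P replicate 1. The arrays give no detection calls, so no level marks a dim member as absent.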
